A study of Homo sapiens with 9 samples.

Results

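The genes described here carry the symbols of nuclear-encoded subunits of the mitochondrial respiratory chain and of the ATP synthase. They were taken by symbol from the 26485 genes of a count table. Names of the forms NDUFA, NDUFB, NDUFC, NDUFS or NDUFV with a number, any name starting with UQCR, COX4 to COX8 or ATP5, SDHA to SDHD and CYC1 were kept, and 3 names (ATP5EP2, ATP5J2-PTCD1 and UQCRBP1) were dropped as a pseudogene form or a readthrough of 2 genes. This left 86 genes: 36 of complex I, 4 of complex II, 10 of complex III, 18 of complex IV and 18 of complex V. NDUFA4 is counted with complex IV, the enzyme it is now known to belong to. ATP5S and ATP5SL (now DMAC2L and DMAC2) are counted with complex V by symbol but are not subunits of the enzyme, and ATP5SL is known as an assembly factor of complex I. The symbols are those of the table, and 19 of them have since been replaced (ATP5B is now ATP5F1B, for example).

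The libraries are poly(A)-selected RNA from HEK293, an established human embryonic kidney cell line, grown in DMEM with fetal bovine serum. There are 3 libraries of cells in which UBE3D was knocked out with CRISPR/Cas9 (UBE3D KO, called KO), 3 of the knockout into which UBE3D was put back (UBE3D addback, called addback) and 3 of UBE3D WT cells (called WT). The labels mark every sample as pooled. They do not say whether the knockout is 1 clone, how UBE3D was put back, or whether the libraries of a group are separate cultures, so p-values measure the spread between these libraries, which may be technical. The study asks what the loss of UBE3D, an enzyme that attaches ubiquitin to proteins, does to gene expression and to transcription past gene ends.

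The respiratory chain passes electrons from NADH (complex I) and succinate (complex II) through complex III and cytochrome c to complex IV, which reduces oxygen. Complexes I, III and IV pump protons across the inner mitochondrial membrane, and complex V, the ATP synthase, lets them back to make ATP. A few core subunits are encoded in mitochondrial DNA and the rest in the nucleus, and the factors NRF1, GABP (of the ETS family) and YY1 are known to bind promoters of many of the nuclear genes. None of the 13 mitochondrially encoded subunits was analysed here.

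Total counts per library ran from 23088295 to 37508780. UBE3D stood at 3125 ± 335 scaled CPM in addback, against 14.5 ± 1.31 in KO and 22.5 ± 3.64 in WT (mean ± SD, n = 3 each; exact two-sided permutation p = 0.1 for each pair, the smallest that 3 against 3 libraries allow). The edited position is not given in the sources used here, so the KO level does not check that label, while UBE3D was far higher in each library labelled addback. The WT and addback libraries also held counts over genes that HEK293 cells should not use. Over 379 odorant receptor genes the counts were 150, 143 and 219 in KO, 8449, 39892 and 40357 in addback, and 9653, 31602 and 37802 in WT. The background was estimated per length of coding sequence, and its share of a library was 0% in KO, 2.75% to 11.5% in addback and 3.03% to 14.5% in WT. The summed level of 14 HEK293 line markers was 2685 to 3060 scaled CPM in KO, 2235 to 2405 in addback and 1729 to 1804 in WT. None was at 0 counts over a group, although STMN2 averaged 0.0122 in KO. VIM had the highest level of the 14 in each group (1350 in KO, 951 in addback and 649 in WT), while POU3F2 stood at 32.9 in KO, 74.6 in addback and 74.2 in WT. In KO against WT 5 of the 14 were called higher and 5 lower, and 5 and 2 of the 9 with at most 10% estimated background. Summed levels of 8 blood markers were 28.9 to 35.6 in KO, 50.3 to 95.3 in addback and 41.1 to 117 in WT, and those of 7 fibroblast markers were 46.3 to 54.9, 74.7 to 143 and 60.1 to 145 scaled CPM in KO, addback and WT. For 8 kidney tubule markers they were 20.4 to 27.7 in KO, 60.2 to 163 in addback and 83.3 to 196 in WT, and for 8 breast epithelium markers 164 to 179, 201 to 227 and 150 to 182 in the same order. In KO the breast sum was largely EPCAM (mean 141) and the blood sum largely HBB (mean 28.0). Likewise the fibroblast sum was largely COL1A1 (mean 45.0) and the kidney tubule sum largely LRP2 (mean 24.1). In KO against WT, 1 of the 8 breast markers was called higher and 7 lower, and none of the 8 blood markers higher and 6 lower. None of the fibroblast or kidney tubule markers was called higher, while 5 of 7 and 8 of 8 were called lower. No marker of these lists was at 0 counts in WT or addback, and 2 breast markers (LALBA and CSN2) were at 0 in KO. Libraries were therefore scaled on 7968 low-background genes, and levels are given as scaled CPM, the CPM on that scaling.

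The background takes a median of 1.78% in addback and 1.45% in WT of the level of 79 of the 86 genes, those with an estimated background share of at most 10%. In the low-background genes used for scaling the medians are 5.82% and 5.84%. For the other 7 genes (COX4I2, COX6A2, COX6B2, COX7A1, COX7B2, COX8C and ATP5L2) the share exceeds 10%, and they are given apart. All 86 passed the filter on low counts. The division at 10% was made after the data had been seen.

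Promoters of these genes were searched for NRF1, ETS and YY1 motifs. RefSeq promoter entries (GRCh38.p14, from 250 bases before to 50 bases after the start, 300 in all) exist for 68 of the 86 genes. The palindromic consensus motif of NRF1 was present on either strand in 16 of the 68 (23.5%), against 6.28% of all 27305 promoters. The ETS motif CCGGAAG was present in 19 (27.9%), against 10.7%, and the YY1 motif AANATGGCG in 16 (23.5%), against 3.37%. At least 1 of the motifs lay in 39 of the 68 (57.4%), against 17.9% of all promoters, which include those of noncoding genes. No ETS match shared bases with a YY1 match in the members. Among the 79 genes with little background that have an entry, 13 of 21 called higher in KO against WT held a motif, 4 of 11 called lower, and 21 of 32 not called. Examples from each complex are printed in the direction of transcription as the 150 bases next to the gene's first exon, with NRF1 or ETS matches in capitals. They were chosen after the matches had been seen, except NDUFA7, which has the largest absolute log2 fold in KO against WT among the 79 genes with little background and no NRF1 or ETS match. YY1 matches are not marked, and NDUFA7 and NDUFS1 each hold one within the 300 bases.

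NDUFA7, complex I, chr19:8321397-8321546, minus strand: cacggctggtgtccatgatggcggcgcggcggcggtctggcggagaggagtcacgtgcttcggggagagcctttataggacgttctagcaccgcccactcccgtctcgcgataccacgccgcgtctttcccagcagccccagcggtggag
NDUFA3, complex I, chr19:54102702-54102851, plus strand: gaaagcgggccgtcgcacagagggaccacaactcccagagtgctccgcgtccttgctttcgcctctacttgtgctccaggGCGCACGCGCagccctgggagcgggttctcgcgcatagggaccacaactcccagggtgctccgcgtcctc
NDUFA12, complex I, chr12:95003714-95003863, minus strand: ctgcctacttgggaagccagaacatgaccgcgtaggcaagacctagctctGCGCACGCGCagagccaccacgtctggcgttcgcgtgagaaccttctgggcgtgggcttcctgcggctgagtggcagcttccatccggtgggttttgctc
NDUFS1, complex I, chr2:206159520-206159669, minus strand: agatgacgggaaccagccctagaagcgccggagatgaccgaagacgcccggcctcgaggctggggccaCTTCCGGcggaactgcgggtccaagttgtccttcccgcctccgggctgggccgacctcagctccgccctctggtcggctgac
SDHD, complex II, chr11:112086674-112086823, plus strand: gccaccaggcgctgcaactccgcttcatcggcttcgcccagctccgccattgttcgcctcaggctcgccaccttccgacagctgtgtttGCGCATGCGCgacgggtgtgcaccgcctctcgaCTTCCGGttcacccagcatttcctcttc
UQCR11, complex III, chr19:1605485-1605634, minus strand: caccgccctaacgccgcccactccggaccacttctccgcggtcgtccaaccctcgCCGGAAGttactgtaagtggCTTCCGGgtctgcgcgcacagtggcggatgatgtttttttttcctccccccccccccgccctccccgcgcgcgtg
COX5B, complex IV, chr2:97645908-97646057, plus strand: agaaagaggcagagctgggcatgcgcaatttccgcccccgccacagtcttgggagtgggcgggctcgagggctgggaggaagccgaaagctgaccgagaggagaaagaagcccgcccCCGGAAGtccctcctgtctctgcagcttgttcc
ATP5I, complex V, chr4:674339-674488, minus strand: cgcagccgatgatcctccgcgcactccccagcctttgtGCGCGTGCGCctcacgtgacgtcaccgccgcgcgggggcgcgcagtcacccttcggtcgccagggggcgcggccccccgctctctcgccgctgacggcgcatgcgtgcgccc

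Per length of exon, the levels spread over a wide range within each complex. In complex IV, COX7C was highest, at 508 ± 9.7 scaled CPM per kb in KO, 414 ± 28 in addback and 413 ± 15 in WT (SD, n = 3). ATP5B, the catalytic beta subunit of the ATP synthase, led complex V at 502 ± 15 in KO, 415 ± 21 in addback and 405 ± 13 in WT, a level close to that of COX7C within the SD. UQCRH, the hinge protein of complex III, followed at 247 ± 5.8 in KO, 203 ± 7.9 in addback and 212 ± 3.5 scaled CPM per kb in WT. NDUFA13, a complex I subunit also known as GRIM-19, was at 200 ± 12 in KO, 221 ± 15 in addback and 212 ± 8.4 in WT, and its ranges overlapped in the 3 groups. SDHA, the flavoprotein that oxidises succinate, headed complex II at 92.1 ± 1.2 in KO, 94.1 ± 2.3 in addback and 87.5 ± 4.0 in WT. The lowest levels per kb among the genes with little background were those of NDUFC2 in complex I, at 8.22 ± 0.36 in KO, 5.50 ± 0.705 in addback and 5.71 ± 0.62 in WT, and of ATP5S in the complex V group, at 5.70 ± 0.196, 6.64 ± 0.969 and 7.70 ± 0.541 in the same order. SDHD was lowest in complex II (34.1 ± 1.3 in KO, 32.5 ± 0.92 in addback and 33.8 ± 0.60 in WT) and UQCRB in complex III (17.1 ± 0.22, 14.2 ± 0.56 and 14.6 ± 0.68 in the same order). NDUFA4 was lowest in complex IV, at 42.0 ± 1.28 scaled CPM per kb in KO, 37.6 ± 2.41 in addback and 45.1 ± 1.34 in WT. ATP5E stood between 4.16 and 6.36 scaled CPM in the 9 libraries and shares 66.3% of its exon bases with the readthrough gene SLMO2-ATP5E on the same strand, so its level is uncertain.

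KO was compared with WT to ask what the loss of UBE3D changed. Of the 79 genes, 26 were called higher in KO and 14 lower at an adjusted p under 0.05, with a median log2 fold of 0.06. Over all 86, 26 were called higher and 19 lower. Of all 21994 genes tested, 9.68% were called higher and 52.3% lower (62% in either direction), a split that holds the background of the WT libraries. Of the low-background genes, 23.3% were called higher and 26.1% lower (49.4% in either direction), with a median of -0.02, while of the 79 respiratory chain genes 32.9% were called higher and 17.7% lower. Most differences were small: 8 of the 79 had an absolute log2 fold over 0.3, and 4 over 0.5. The ranges of the 3 KO and 3 WT libraries did not overlap in 46 of the 79 (30 higher in KO and 16 lower). Among the low-background genes 27% lay wholly higher in KO and 31.3% wholly lower, and among all tested genes 12.4% and 58.2%. In bulk RNA, fewer cells of a type and less RNA per cell cannot be told apart.

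Leaving out a single library changed the 26 higher genes to 13 (without KO 1), 15 (without KO 2) or 17 (without WT 2). Counts of higher and lower genes also moved with the treatment of the background. After subtraction of the estimated background from the counts, 12 of the 79 were called higher in KO and 17 lower. With the 4 libraries of highest background left out (addback 2 and 3, WT 2 and 3, a choice made after seeing the data), the median log2 fold of the 79 was 0.02. That fit holds 1 WT library, so its calls are not given. With TMM factors over all genes, which shift the median of the low-background genes to 0.31, 54 were called higher and 1 lower. The median of the 79 less that of the low-background genes was 0.08 in the scaling used here, 0.02 after subtraction, and -0.05 after subtraction of 2 times the estimate. It was 0.12 without WT 1 and 0.04 without WT 3. Of the 26 higher genes, NDUFC2, ATP5B and COX7C kept their call under each of the 20 alternatives planned, and of the 14 lower genes NDUFA7 did. After subtraction of 2 times the background, 3 genes were called higher and 21 lower.

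**Figure D1:**
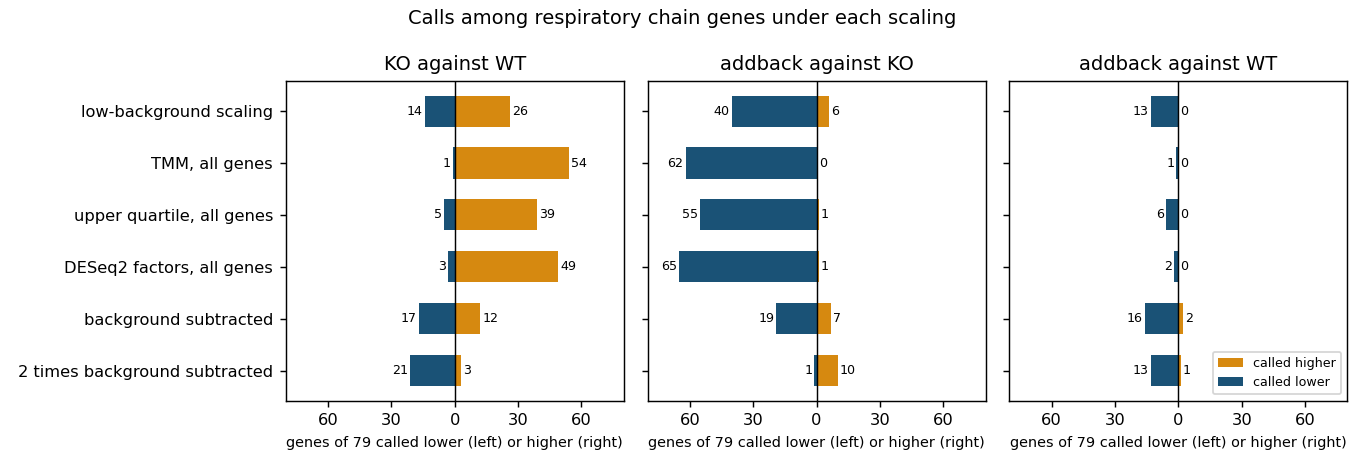
Number of the 79 respiratory chain genes called higher (right of 0) or lower (left of 0) at an adjusted p under 0.05 in each comparison, by scaling or background treatment. KO against WT shows 26 higher and 14 lower with low-background scaling, 54 and 1 with TMM factors over all genes, and 12 and 17 after background subtraction.

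**Figure D2:**
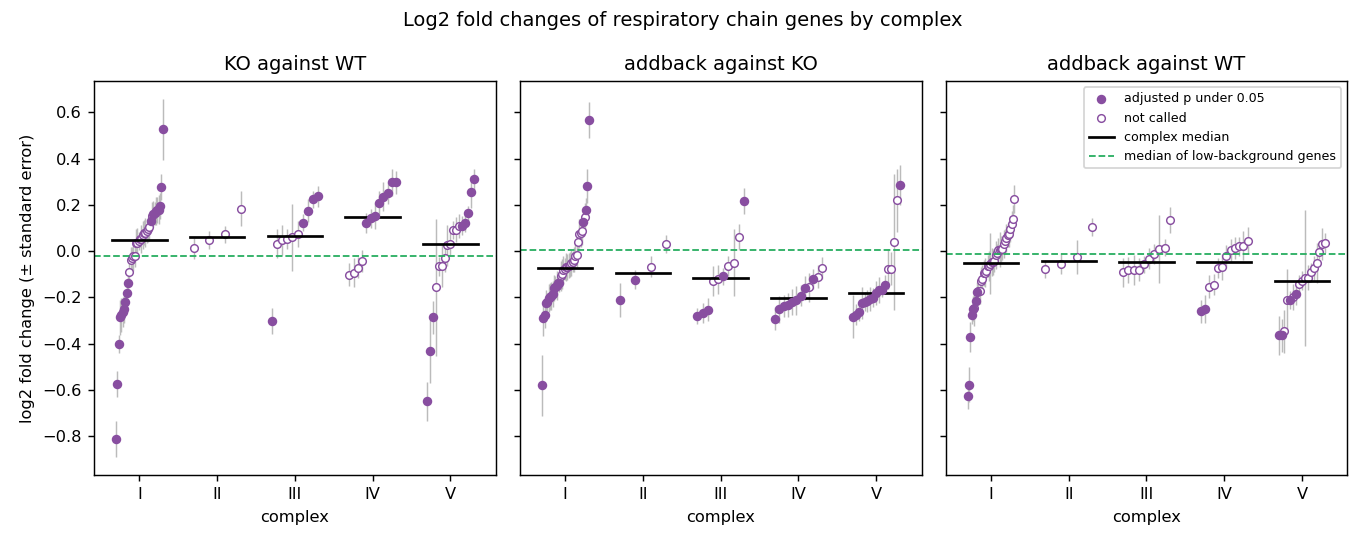
Log2 fold changes (± standard error) of the 79 genes by complex in the 3 comparisons, filled where the adjusted p was under 0.05 and open where it was not. Bars are complex medians and the dashed line is the median of the low-background genes; in KO against WT, complex IV has the highest median (0.15) and no gene called lower.

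By complex, KO against WT gave 9 genes higher and 10 lower of 36 in complex I (median log2 fold 0.05), and none called of 4 in complex II (0.06). It gave 4 higher and 1 lower of 10 in complex III (0.07), 8 higher and none lower of 12 in complex IV (0.15), and 5 higher and 3 lower of 17 in complex V (0.03). In complex II, SDHA, SDHB, SDHC and SDHD had adjusted p of 0.127, 0.0567, 0.329 and 0.838. The higher and lower shares were 25% and 27.8% in complex I, 40% and 10% in complex III, and 66.7% and 0% in complex IV. In complex V they were 29.4% and 17.6%. Of the low-background genes 23.3% were called higher and 26.1% lower, shares near those of complex I. Differences between complexes were not tested. Summed over its 12 genes, complex IV was at 1759, 1741 and 1694 scaled CPM in the KO libraries, 1576, 1516 and 1410 in addback, and 1630, 1506 and 1528 in WT, so every KO library lay above every other library. The same held in complex III (1128 to 1157 in KO, at most 1111 in the other libraries). It also held in complex V (3011 to 3127 in KO, at most 2965.5 in the other libraries), whose median log2 fold was 0.03. Abundant genes weigh most in such sums, among them ATP5B in complex V and UQCRH in complex III. Sums without these genes were not made, so the separation is not shown for the other genes of complexes III and V. Complex I summed to 2454 ± 55.9 in KO, 2340 ± 94.6 in addback and 2468 ± 71.7 in WT, with overlapping ranges of KO and WT. All 79 together made up 8908 ± 163 scaled CPM in KO, 8050 ± 346 in addback and 8417 ± 284 in WT (SD, n = 3 each).

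**Figure D3:**
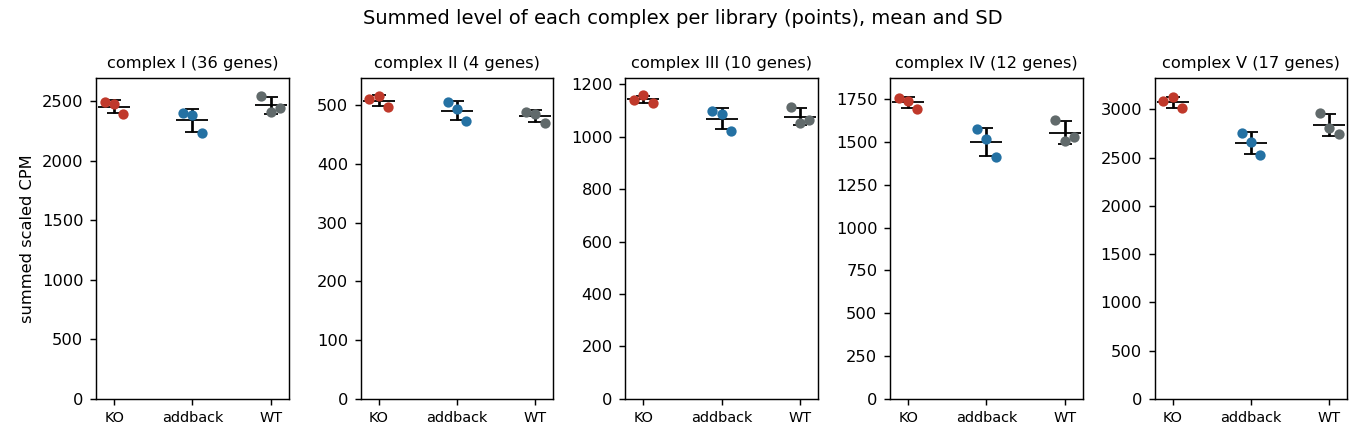
Summed scaled CPM of the genes of each complex per library (points), with mean and SD of 3 libraries for KO, addback and WT. Complex IV lies between 1694 and 1759 in KO, above the addback and WT libraries. Complexes III and V also lie above those libraries in KO, whereas complex I overlaps between KO and WT. Abundant genes such as ATP5B in complex V and UQCRH in complex III weigh most in the sums.

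In complex I, 10 of 36 genes were called lower in KO against WT and 9 higher. These shares (27.8% and 25%) are near those of the low-background genes (26.1% lower and 23.3% higher). NDUFA7 (chromosome 19, 8311300-8321396, minus strand, hg38), an accessory subunit of the matrix arm, had 23.1, 22 and 21.9 scaled CPM in KO, 35.1, 32.4 and 31.5 in addback, and 43.1, 36.5 and 37.8 in WT. The KO libraries lay below all others and the addback libraries between KO and WT. NDUFA7 changed by -0.81 ± 0.08 log2 in KO against WT (adjusted p = 0.000274) and 0.56 ± 0.08 in addback against KO (adjusted p = 0.00189). The fall in KO was called under each of the 20 alternatives run.

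NDUFA8, an accessory subunit of the intermembrane-space side (chromosome 9, 122144059-122159819, minus strand), had 40.2 scaled CPM in each KO library, 39.3, 40.9 and 36.2 in addback, and 62.7, 58.4 and 58.3 in WT. KO and addback overlapped, and both lay below WT, with log2 folds of -0.57 ± 0.06 in KO (adjusted p = 0.00027) and -0.63 ± 0.06 in addback (adjusted p = 0.000185), each against WT. NDUFB6, a membrane-arm accessory subunit also on chromosome 9 (32553526-32573184, minus strand), had 38.4, 37.2 and 37.6 scaled CPM in KO, 32.1, 32.1 and 28.2 in addback, and 50.3, 45.4 and 42.3 in WT. The 3 groups did not overlap, and NDUFB6 was called lower in all 3 comparisons, which share libraries, with log2 folds of -0.29 ± 0.08 in KO against WT (0.04 with TMM factors over all genes), -0.29 ± 0.08 when addback was set against KO, and -0.58 ± 0.08 for addback over WT.

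NDUFS1, the largest subunit of the catalytic core, which carries iron-sulfur clusters, had 99.6, 99.9 and 96.6 scaled CPM in KO, 110, 108 and 106 in addback, and 129.8, 125.07 and 136.8 in WT. The 3 groups were apart, and NDUFS1 changed by a log2 of -0.40 ± 0.04 in KO against WT and by 0.13 ± 0.04 in addback against KO (-0.17 with TMM factors over all genes). Of the other core subunits, NDUFS3, NDUFS7, NDUFS8, NDUFV1 and NDUFV2 had log2 folds of 0.03 to 0.09 in KO against WT, and none was called. NDUFA3 was lower in KO at -0.28 ± 0.07 and higher in addback against KO at 0.28 ± 0.07, values that became 0.05 and -0.01 with TMM factors over all genes. NDUFB2, NDUFA5 and NDUFA10 were called lower in KO at -0.26, -0.18 and -0.14, and with TMM factors over all genes stood at 0.06, 0.16 and 0.19. NDUFB2 shares 28.3% of its exon bases with its antisense gene NDUFB2-AS1, whose reads cannot be told apart without strand. The rest of the falls in complex I were NDUFB10 (-0.25 ± 0.06; 0.08 with TMM factors over all genes) and NDUFV3 (-0.22 ± 0.05; 0.12 with those factors), and these 2 were added after their values were seen.

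NDUFC2, a membrane-arm subunit, was the complex I gene that rose most in KO. It had 21.3, 20.2 and 19.5 scaled CPM in KO, 13.4, 15.4 and 12 in addback, and 15, 12.4 and 15 in WT. KO lay above both other groups, which overlapped, with log2 folds of 0.53 ± 0.13 in KO against WT (adjusted p = 0.00796) and -0.58 ± 0.13 in addback against KO (adjusted p = 0.00598), and both calls held in the 20 alternatives. NDUFC2 shares 31.7% of its exon bases with the readthrough gene NDUFC2-KCTD14 on the same strand, so part of its reads may belong to either.

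**Figure D4:**
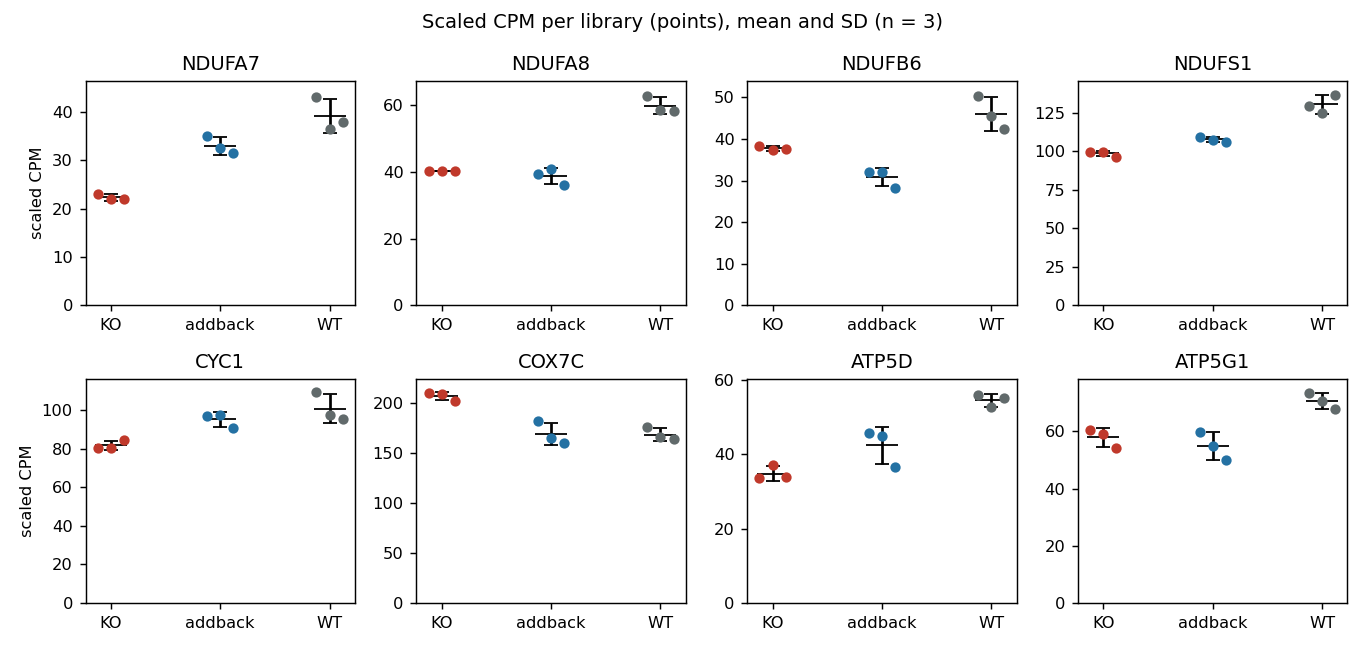
Scaled CPM of 8 genes in each library (points), with mean and SD of 3 libraries, for KO, addback and WT. NDUFA7 is lowest in KO (21.9 to 23.1) and intermediate in addback, NDUFA8 is alike in KO and addback and higher in WT, and COX7C is highest in KO.

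In complex III, CYC1, the cytochrome c1 heme protein encoded on chromosome 8, had 80.2, 80.5 and 84.4 scaled CPM in KO, 96.8, 97.6 and 90.8 in addback, and 109, 97.4 and 95.3 in WT. KO lay below the other groups, which overlapped, and the log2 folds were -0.30 ± 0.06 in KO against WT (0.02 with TMM factors over all genes) and 0.22 ± 0.06 in addback against KO (-0.08 with those factors). UQCRH, described above, had 195, 191 and 186 scaled CPM in KO, 157, 163 and 151 in addback, and 166, 162 and 162 in WT. All KO libraries exceeded the rest, with log2 folds of 0.22 ± 0.04 in KO against WT and -0.28 ± 0.04 in addback against KO. UQCRB, which binds ubiquinone, was higher in KO at 0.24 ± 0.04 and lower in addback against KO at -0.27 ± 0.04. Of the core proteins, UQCRC2 was called higher in KO (0.12 ± 0.04), while UQCRC1 (0.05 ± 0.04) and the Rieske protein UQCRFS1 (0.07 ± 0.06) were not called. UQCRHL, an intronless copy of UQCRH, had 13.0 ± 0.63 scaled CPM in KO, 12.5 ± 1.7 in addback and 12.4 ± 0.90 in WT, and reads could be split between the copies.

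In complex IV, 8 of the 12 genes with little background rose in KO against WT (66.7%, beside 23.3% of the low-background genes). COX7C (chromosome 5, 86617967-86620766, plus strand), a small membrane subunit, had 209, 209 and 202 scaled CPM in KO, 181, 164 and 160 in addback, and 175, 166 and 164 in WT. KO was above both other groups, which overlapped, and the log2 folds were 0.30 ± 0.05 in KO against WT (adjusted p = 0.00174) and -0.29 ± 0.05 in addback against KO (adjusted p = 0.00242). The call in KO against WT held in the 20 alternatives, with folds of 0.13 to 0.62.

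COX4I1, the ubiquitous form of the largest nuclear-encoded subunit, had 280, 280 and 266 scaled CPM in KO, 245, 238 and 211 in addback, and 237, 220 and 216 in WT, again with KO above the rest. Its log2 folds were 0.30 ± 0.06 in KO against WT and -0.25 ± 0.06 in addback against KO. COX5A, COX6A1, COX6B1, COX7A2L and COX7B were also called higher in KO, by log2 folds of 0.15, 0.24, 0.21, 0.12 and 0.14, although COX7A2L and COX7B stood at -0.02 and -0.01 after subtraction of 2 times the background. COX6C, on chromosome 8, was the eighth gene called, at 0.25 ± 0.05. Not called were COX5B (-0.09), COX7A2 (-0.04), COX8A (-0.07) and NDUFA4 (-0.10). They stood at 0.13, 0.18, 0.16 and 0.13 in the authors' deposited table of KO against WT.

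The forms of complex IV subunits known from muscle, lung, testis and other tissues made up most of the genes dominated by background. COX4I2, the lung form of COX4, had 0 counts in the 3 KO libraries, 0.64, 2.8 and 2.0 scaled CPM in addback, and 0.40, 2.9 and 2.2 in WT. Against a floor of 3 counts over the KO group, addback was at least 57.6-fold higher than KO, and WT at least 58.3-fold higher. COX7B2 and COX6A2, a testis and a muscle form, were also at 0 counts in KO, and their addback levels were at least 11.2 and 8.03-fold higher than in KO. The estimated background made up 70.3% of the COX4I2 level in WT, and exceeded 100% for COX7B2 and COX6A2. COX8C and ATP5L2 were called lower in KO, at log2 folds of -3.80 ± 0.70 and -2.66 ± 0.77, and were not called after background subtraction. COX6B2 (-1.37 ± 0.73) and COX7A1 (-0.76 ± 0.53) were not called.

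In complex V, 5 genes rose and 3 fell in KO against WT (29.4% and 17.6%, beside 23.3% and 26.1% of the low-background genes). ATP5B (chromosome 12, 56638175-56646068, minus strand) had 918, 956 and 900 scaled CPM in KO, 807, 754 and 733 in addback, and 772, 743 and 723 in WT. KO lay above both other groups, with log2 folds of 0.31 ± 0.04 in KO against WT (adjusted p = 0.00121) and -0.27 ± 0.04 in addback against KO (adjusted p = 0.00231). The call in KO against WT held in the 20 alternatives. ATP5A1, the alpha subunit, was not called in KO against WT (0.03 ± 0.05; -0.13 after subtraction of 2 times the background).

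ATP5D, the delta subunit of the central stalk (chromosome 19, 1241750-1244825, plus strand), had 33.6, 37.1 and 33.8 scaled CPM in KO, 45.7, 44.9 and 36.6 in addback, and 56.0, 52.7 and 55.2 in WT. KO and addback overlapped and both lay below WT. Its log2 folds were -0.65 ± 0.09 in KO against WT (adjusted p = 0.000954), 0.29 ± 0.09 in addback against KO (-0.01 with TMM factors over all genes) and, for addback over WT, -0.36 ± 0.09. ATP5S was lower in KO at -0.43 ± 0.14, with an estimated background of 10.4% in WT.

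ATP5G1, ATP5G2 and ATP5G3 encode the same mature protein, which forms the c-ring of the enzyme. ATP5G1 had 60.5, 59.2 and 54.2 scaled CPM in KO, 59.9, 55 and 50 in addback, and 73.5, 70.6 and 67.8 in WT, so that KO and addback overlapped below WT. Its log2 fold in KO against WT was -0.29 ± 0.07 (0.04 with TMM factors over all genes). ATP5G2 was called higher in KO at 0.25 ± 0.07, and ATP5G3, the most abundant of the 3 at 178 ± 2.4 in KO, 161 ± 6.4 in addback and 187 ± 7.7 scaled CPM in WT, was not called in KO against WT (-0.07 ± 0.04). ATP5G3 stood at 0.16 in the authors' deposited table of KO against WT.

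Addback was set against KO to ask what the return of UBE3D changed, and these values share the KO libraries with the comparison above. Of the 79 genes, 6 were called higher in addback and 40 lower, with a median log2 fold of -0.13, and over all 86 the counts were 11 and 40. Of all genes tested, 48.8% were called higher and 7.89% lower (56.7% in either direction), and of the low-background genes 18% and 20% (38% in either direction), against 7.59% and 50.6% of the 79. The background subtraction changed these counts to 7 higher and 19 lower, and after subtraction of 2 times the estimate they were 10 and 1. Leaving out the 4 libraries of highest background, which leaves 1 addback library, gave a median log2 fold of -0.09. Of the 40 lower genes, NDUFC2 kept its call under each of the 20 alternatives. Without addback 3, KO 1 or KO 2 the lower genes numbered 22, 23 or 25, and without addback 2 the higher genes numbered 3. The 6 higher genes were NDUFA7, NDUFA3, NDUFS1, NDUFV3, CYC1 and ATP5D, at log2 folds of 0.56, 0.28, 0.13, 0.18, 0.22 and 0.29, of which all but NDUFA7 were below 0 with TMM factors over all genes. By complex the counts were 4 higher and 13 lower in complex I, none and 2 in complex II, 1 and 4 in complex III, none and 9 in complex IV, and 1 and 12 in complex V, with median log2 folds of -0.07, -0.10, -0.12, -0.20 and -0.18 from complex I to V.

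Among complex II genes, SDHB, the iron-sulfur subunit, had 73.6, 73.5 and 63.5 scaled CPM in addback, against 79.6, 88.2 and 75.9 in KO. The ranges did not overlap, and the log2 fold was -0.21 ± 0.07 (adjusted p = 0.0373). SDHC, a membrane anchor, was called lower at -0.12 ± 0.04 (0.02 after subtraction of 2 times the background), whereas SDHA (0.03 ± 0.04; -0.23 with DESeq2 size factors over all genes) and SDHD (-0.07 ± 0.04) were not called. In complex V, ATP5A1, ATP5B, ATP5G2 and ATP5G3 were lower in addback than in KO at -0.22, -0.27, -0.23 and -0.15 (ATP5G3 at 0.03 after subtraction of 2 times the background), and ATP5J2 at -0.28 ± 0.09. ATP5J2 shares 35.4% of its exon bases with the readthrough gene that was dropped.

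Addback was also compared with WT, libraries that hold a like amount of background. Of the 79 genes none was called higher and 13 lower, with a median of -0.07; the counts over all 86 were the same. The median was -0.03 without WT 1 or without addback 3. At an unadjusted p under 0.05, edgeR's quasi-likelihood test gave 4 genes higher and 23 lower, and the DESeq2 Wald test called 3 higher. Of all genes tested, 4.31% were called higher and 4.88% lower (9.19% in either direction), and of the low-background genes 9.7% and 12.2% (21.9%), against 16.5% lower of the 79. Complex I held 7 of the 13, complex IV 2 and complex V 4. With the replicate number as a block, since same-numbered libraries of these groups deviate together, 18 were called lower and none higher. Without addback 2 or WT 1 the lower genes numbered 6 or 8, and with TMM factors over all genes 1. With the 4 libraries of highest background left out, 1 addback library stood against 1 WT library, and the median log2 fold was -0.07.

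The 13 were NDUFA8, NDUFB6, NDUFB2, NDUFS1, NDUFA5, NDUFA10 and NDUFV2 in complex I, NDUFA4 and COX5B in complex IV, and ATP5D, ATP5G1, ATP5G3 and ATP5A1 in complex V. NDUFA4 had 82.5, 77.3 and 72.6 scaled CPM in addback, against 95.0, 89.7 and 93.7 in WT, without overlap, and a log2 fold of -0.26 ± 0.05 (adjusted p = 0.0128). COX5B, which binds zinc, had 88.8, 92.9 and 80.4 in addback and 110, 97.6 and 105 in WT, with a log2 fold of -0.25 ± 0.06 (adjusted p = 0.0384).

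The 8 genes called lower in both KO and addback, each against WT, were set beside other genes of their chromosomes. NDUFA7 and the other members of chromosome 7 were added. On chromosome 9 the other 311 low-background genes had a median log2 fold of -0.45 in KO against WT, -0.42 in addback against WT and 0.02 in addback against KO. The 2 members there, NDUFA8 and NDUFB6, stood at -0.57 and -0.29 in KO against WT, and the other low-background genes within 5 megabases of them had medians of -0.47 (29 genes) and -0.47 (40 genes). On chromosome 7 the median of 365 other genes was -0.21 in KO and -0.22 in addback, each against WT, and its 4 members NDUFB2, NDUFA5, NDUFA4 and ATP5J2 stood at -0.26, -0.18, -0.10 and -0.06 in KO, and at -0.37, -0.25, -0.26 and -0.35 in addback.

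Chromosome 19, with 13 of the 86 genes, had a median of 0.05 over 510 other genes in KO against WT. NDUFA7 and ATP5D, at -0.81 and -0.65, lay far below the other low-background genes within 5 megabases, whose medians were 0.02 (114 genes) and 0.03 (85 genes). NDUFS1 on chromosome 2 stood at -0.40, against -0.15 for 23 genes near it. NDUFA10, also on chromosome 2, stood at -0.14, against -0.17 for 25 genes near it. ATP5G1 on chromosome 17 stood at -0.29, against 0.01 for 74 genes near it. What the values of a chromosome have to do with the folds of its members was not tested.

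**Figure D5:**
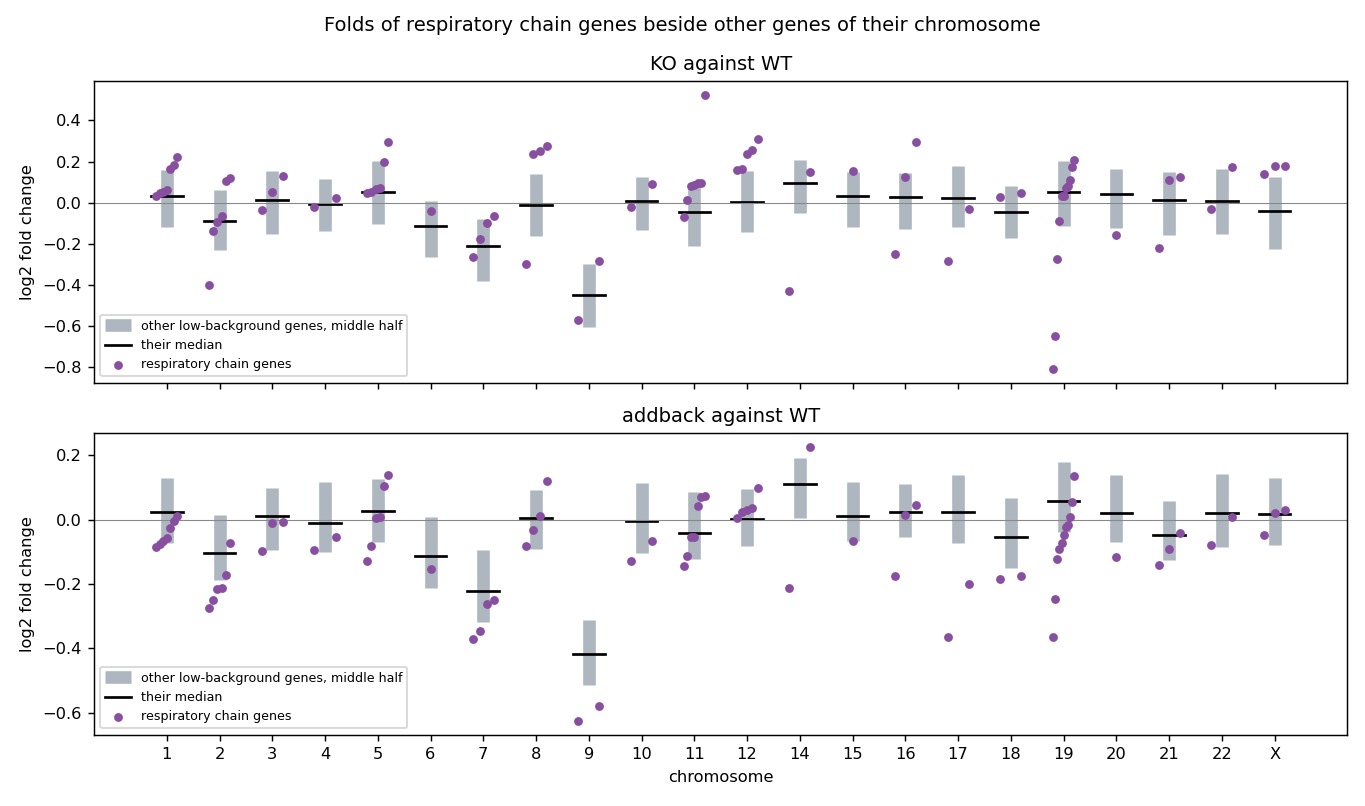
Log2 fold changes of the 79 respiratory chain genes (points) by chromosome in KO against WT (top) and addback against WT (bottom), with the quartile range (grey bar) and median (line) of the other low-background genes of each chromosome. Chromosome 9 has the lowest median in both comparisons (-0.45 and -0.42), and NDUFA7 and ATP5D lie far below the bar of chromosome 19.

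Genes that act on the respiratory chain were read from lists drawn up for it, and their counts stand beside the 23.3% higher and 26.1% lower of the low-background genes in KO against WT (median -0.02). Of 20 complex I assembly factors, 4 were called higher and 6 lower (median -0.01), shares near those. The largest changes were C17orf89 (now NDUFAF8), at 31.3 ± 6.4 scaled CPM in KO, 57.9 ± 5.6 in addback and 51.9 ± 9.4 in WT, and ACAD9, at 30.3 ± 1.3, 46.0 ± 3.6 and 44.1 ± 6.1 in the same order. Their log2 folds in KO against WT were -0.73 ± 0.17 and -0.54 ± 0.10. Of 4 complex II assembly factors, SDHAF1 was higher (0.33 ± 0.07) and SDHAF3 lower (-0.32 ± 0.09; 0.02 with TMM factors over all genes). Of 6 complex III assembly factors 2 were higher and none lower (median 0.11), with UQCC1 at 0.43 ± 0.05 and LYRM7 at 0.15 ± 0.05.

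Of 26 complex IV assembly factors, 9 were higher and 4 lower in KO against WT (median 0.08), with COA7 at 0.43 ± 0.06 and SURF1, on chromosome 9, at -0.50 ± 0.09. Of 4 ATP synthase assembly genes ATPAF1 was called higher (0.14 ± 0.05). Of 28 genes of mitochondrial import and cristae, 13 were higher and 2 lower in KO, and none was higher and 14 lower in addback against KO, with medians of 0.10 and -0.16 log2. Of the low-background genes 18% were called higher and 20% lower in addback against KO. TOMM40, the channel of the outer membrane, was higher in KO at 0.32 ± 0.08, and TOMM5, a small subunit of the same pore encoded on chromosome 9, was lower at -0.47 ± 0.05.

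Of 19 genes of the tricarboxylic acid cycle, 2 were higher and 6 lower in KO against WT (median -0.06), and 2 and 5 in the 18 with at most 10% background. IDH3G, a subunit of NAD-dependent isocitrate dehydrogenase, had 17.9 ± 0.82 scaled CPM in KO, 34.7 ± 0.96 in addback and 38.1 ± 5.7 in WT, with log2 folds of -1.09 ± 0.10 in KO against WT and 0.96 ± 0.10 in addback against KO. PC, pyruvate carboxylase, had a log2 fold of -1.03 ± 0.21, with an estimated background of 26.3%. Of 20 subunits and carriers that the symbol rule left out, 4 were higher and 9 lower (4 and 5 in the 16 with at most 10% background), among them SLC25A6, an ADP/ATP carrier, at -0.59 ± 0.07 in KO against WT and 0.23 ± 0.07 in addback against KO (-0.07 with TMM factors over all genes). NDUFA4L2 was called lower at -2.20 ± 0.62, with a background of 22.3%. Of 17 regulators 2 were higher and 6 lower, and in the 8 with at most 10% background 2 and 1. PPARGC1A and ESRRG, at -2.18 ± 0.37 and -7.57 ± 1.34, had estimated background shares of 36.5% and 58.2%.

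The authors' deposited gene tables gave another split. In the authors' deposited table of KO against WT, 50 of the 86 genes were higher and 8 lower, with a median log2 fold of 0.26, and 21.1% of its genes were higher and 41.2% lower. In the authors' deposited table of addback against KO, 5 were higher and 65 lower (median -0.32), against 39.8% and 22.2% of its genes. All 5 higher genes (COX4I2, COX6A2, COX7B2, COX8C and ATP5L2) have an estimated background share over 10%, so none of the genes with little background was higher. They were also among the 8 lower in KO against WT, beside ATP5D, NDUFA7 and NDUFA8. With DESeq2 size factors over all genes in the present fit, 51.4% of the low-background genes were higher in KO against WT. Their median was 0.23, beside 0.31 for the 79 genes. In addback against KO 58.5% of them were lower, with a median of -0.26, beside -0.38 for the 79. How much of the authors' split is due to scaling was not tested. The authors' deposited tables also list transcribed regions downstream of gene ends, and 13 of them follow genes described here. In the authors' deposited table for KO against WT, 7 of the 13 were higher and 3 lower, with a median of 0.36, against 24.8% and 25% of its 2541 regions.

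The largest of these, in the authors' deposited table, follows NDUFS6, a zinc-binding complex I subunit (chromosome 5, 1816052-1840051, hg38). It had a log2 fold of 1.34 ± 0.12 in KO against WT and -0.83 ± 0.12 in addback against KO. The regions after NDUFB5 and COX7B stood at 0.87 ± 0.29 and 0.72 ± 0.15 in KO against WT in the authors' deposited table, and that after ATP5G1 at -0.48 ± 0.14, with 0.49 ± 0.15 in addback against KO. In the authors' deposited table for addback against KO, 1 of the 13 was higher and 5 lower (median -0.17), against 18.6% and 15.5% of its 2396 regions. Those tables hold no values per library, and the folds of the 2 region tables may not be on one scale. NDUFS6 itself was called higher in KO at 0.20 ± 0.06 and lower in addback against KO at -0.19 ± 0.06.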

How the data were processed

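Poly(A) RNA of 9 HEK293 libraries was analysed from the authors' files. Per the submitters' processing notes, cutadapt 1.8.1, STAR 2.5.2b and DESeq2 were used on hg38, without a role given to each. No counting program or annotation is named in them. The authors deposited a count per gene and library, with gene length in bases. The authors' deposited result tables hold base means (signal), log2 folds and their errors, test statistics (score) and p-values; p-values were taken as given. The columns marked KO.U were taken as addback. No sample column went unused.

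Counts were fitted with edgeR 4.0.16 (R 4.3.3; limma 3.58.1): filterByExpr by group left 21994 genes, and 1 robust quasi-likelihood fit to the 9 libraries, with a term for genotype alone, gave 3 contrasts. Adjusted p are Benjamini-Hochberg over all genes tested, with calls under 0.05. Errors of folds are standard errors from the fit. Scaling used TMM factors of 7968 genes whose coding sequence is at least 10% of the exons and whose estimated background is at most 10% of the mean CPM. The background of a library was the median count per kb of coding sequence over 533 tissue-restricted genes, with coding sequence from GENCODE 29. This set differs in size from one used before on these data, and the difference was not traced. Alternatives were other scalings, DESeq2 1.42.0, no filter, background subtraction, fewer genes or groups, a replicate block and leaving out libraries. The fit was tested on simulated data.

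The members and lists were chosen with earlier results of these data known. Named are the 10 largest called folds per contrast, core subunits, paralogues, the highest and lowest levels per length, and the 2 largest folds of each list. Replicates were compared for duplication, and none were copies (chi-square per degree of freedom 1.99 to 44.5). Same-numbered libraries of addback and WT correlated in their deviations at 0.58, 0.34 and 0.63. This was treated as possible pairing, in the replicate block alone. The estimated background rose in the same replicate order in both groups, so pairing was not told apart from a shared background level. Between KO and WT the correlations were 0.06, -0.01 and 0.07. Those of addback with KO were 0.01, 0.07 and 0.17, and neither of these was taken as pairing. Values of 1 gene are not reported here.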

Additional observations from a re-analysis of the deposited data

How the results depend on the processing

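The counts over all 86 genes moved most with scaling and background. For KO against WT, the 26 genes called higher became 54 with TMM factors over all genes and 49 with DESeq2 size factors. They became 12 and 3 after subtraction of 1 and 2 times the estimated background. Leaving out 1 library gave 13 to 28 (13 without KO 1, 15 without KO 2 and 17 without WT 2). The 19 lower became 6, 10 and 8 with TMM, upper quartile and DESeq2 factors over all genes, and 16 to 19 with 1 library left out. The fit to low-background genes alone holds 76 of the 86 genes and called 12 of them lower, beside 14 of the 79 in the main fit. For addback against KO, the 11 higher became 5, 6 and 6 with TMM, upper quartile and DESeq2 factors, and 7 after subtraction. With 1 library left out they became 7 to 11 (7 without addback 2). The fit to low-background genes alone called 5 of its 76 genes higher, beside 6 of the 79 in the main fit. The 40 lower became 62 with TMM and 65 with DESeq2 factors, and 19 and 1 after subtraction of 1 and 2 times the background. With 1 library left out they became 22 to 42 (23 without KO 1, 25 without KO 2, 22 without addback 3). For addback against WT, none higher became 3 in the DESeq2 Wald test, 2 and 1 after subtraction of 1 and 2 times the background, 1 among low-background genes alone and 1 with the limit set against the lowest group mean, and 0 to 1 with 1 library left out. The 13 lower became 1, 6 and 2 with TMM, upper quartile and DESeq2 factors, 21 in the Wald test, 21 among low-background genes alone and 5 with the 2 groups alone, and 6 to 12 with 1 library left out (6 without addback 2, 8 without WT 1). With the replicate block there were 18 lower and none higher in addback against WT, and the block moved no other count by over 1.5 times. The median of all tested genes in KO against WT was -0.47 with the scaling used, -0.12 with TMM, -0.34 with upper quartile and -0.21 with DESeq2 factors over all genes. The cause was not tested beyond these alternatives.

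Some of the genes named with a value changed sign, and the list that follows is not complete. In KO against WT with TMM factors over all genes, ATP5G1 stood at 0.043, CYC1 at 0.023, NDUFA10 at 0.19, NDUFA3 at 0.048, NDUFA5 at 0.16, NDUFB10 at 0.075, NDUFV3 at 0.12, NDUFB2 at 0.060, NDUFB6 at 0.036 and SDHAF3 at 0.022, and with DESeq2 factors NDUFA10 stood at 0.11, NDUFV3 at 0.031 and NDUFA5 at 0.072. In addback against KO with TMM factors, ATP5D stood at -0.0087, CYC1 at -0.079, NDUFA3 at -0.013, NDUFS1 at -0.17, NDUFV3 at -0.12, SLC25A6 at -0.065 and SURF1 at -0.012, and with DESeq2 factors CYC1 stood at -0.041, NDUFS1 at -0.13, NDUFV3 at -0.081, SDHA at -0.23 and SLC25A6 at -0.028. After subtraction of 2 times the background, ATP5A1 stood at -0.13, COX7A2L at -0.022 and COX7B at -0.013 in KO against WT, and ATP5G3 stood at 0.026, COX7B at 0.047, NDUFA4 at 0.0065, SDHC at 0.020 and UQCRC2 at 0.024 in addback against KO. Of the calls among the 79 genes, those kept under all 20 alternatives were 3 of 26 higher and 1 of 14 lower in KO against WT, none of 6 higher and 1 of 40 lower in addback against KO, and 1 of 13 lower in addback against WT.

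Without the 4 libraries of highest background, 1 addback and 1 WT library remain, assumed to vary like KO, so only median folds are given for that fit.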
